A study of Mus musculus with 31 samples.

Results

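The 10 genes described here were chosen by name. They are genes of bone morphogenetic protein (BMP) signalling and its Id targets, with the ubiquitin ligase Huwe1 listed beside them. The pathway genes are the ligand Bmp4, the type I receptors Bmpr1a and Bmpr1b, and the inhibitory SMADs Smad6 and Smad7. The targets are the 4 genes Id1, Id2, Id3 and Id4. All 10 were found in each of the 21 RNA sequencing tables, among 24062 gene names in the tables of sorted cells and 24322 in those of cultured cells. Of these libraries, 15 came from EGFP-positive cells sorted from the hippocampal dentate gyrus of Nestin-EGFP C57BL/6 mice, whose transgene marks neural stem cells and their progeny. The RUN MDZ 8w mice had received the sedative midazolam (MDZ, 10 mg/kg, into the peritoneum) on postnatal days 7, 8 and 9 and were kept with a running wheel until 8 weeks of age. The MDZ 8w mice had the same injections and no wheel, and the Control 8w mice had water in place of midazolam. The MDZ P10 and Control P10 mice were treated alike with midazolam or water and were examined at postnatal day 10. No group of running mice without midazolam was analysed here. The other 6 libraries came from neural stem cells of ICR mice that had been taken from cortex at embryonic day 11 and grown in EGF and bFGF for more than 20 passages. Egr1 culture cells carried lentiviruses for M2rtTA and for Flag-tagged Egr1, a zinc finger transcription factor, and Control culture cells carried the M2rtTA virus alone. Each group had 3 libraries. Each P10 library stands for 50000 cells of a single mouse (1 per library), and each 8-week library for a pool of 3 to 5 mice and about 30000 cells. The cultured samples are not labelled as separate cultures, so p-values there reflect only how these 3 samples a group varied, and that variation may be technical.

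BMP ligands bind pairs of type I and type II receptors, which phosphorylate receptor SMADs, and these enter the nucleus with Smad4 and switch on Id genes. Smad6 and Smad7 are themselves induced by the pathway and shut it down. Id proteins have a helix-loop-helix domain but no DNA-binding region. They pair with E proteins and so keep proneural factors from working. In the adult dentate gyrus BMP signalling and Id4 are known for keeping stem cells quiescent. Huwe1 is a HECT-type ligase that marks proteins for degradation.

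Levels are given per transcript length, as FPKM at P10 and TPM elsewhere, and were compared between groups only within P10, within 8 weeks and within culture. Changes are log2 fold changes ± standard error (SE) from limma on log2(value + 1), a scale that understates changes of low genes, and a gene passed at a Benjamini-Hochberg adjusted p below 0.05 over all genes tested. The P10 libraries summed to 241508 to 252344 FPKM and the shallowest, Control P10 replicate 2, had 0.57 of the depth of the deepest, MDZ P10 replicate 3, read from steps in the low values. No depth can be given at 8 weeks. Control 8w stood apart: its libraries held 11163 to 11397 genes above 0, against 15568 to 15906 in RUN MDZ 8w and 15382 to 16709 in MDZ 8w. Of 15264 genes tested at 8 weeks, 17.6% were listed at 0 in every Control 8w library, against 1.58% in RUN MDZ 8w and 2.34% in MDZ 8w. A listing at 0 there can be a failed estimate. Control 8w replicates 2 and 3 shared 97.43% of detected genes with a Spearman correlation of 0.9919, against 78.38% and 77.81% shared with replicate 1, and may be 1 library deposited in repeat. Their mean was used as 1 sample (n = 2 for Control 8w). The stem cell markers Sox2, Nes and Hopx were detected in all 21 libraries. Sorted cells at both ages also held the neuroblast marker Dcx, which in culture stood at 0.0788 to 0.123 TPM in Egr1 culture and at 0 TPM in Control culture. The neuroblast markers Neurod1 and Prox1 stood in culture at 0.373 to 1.01 TPM and 5.21 to 7.98 TPM. The astrocyte marker Gja1 was detected in sorted and in cultured cells, at 28.4 to 34.7 TPM in culture. The astrocyte markers Aqp4 and Slc1a2 were also detected in all sorted libraries. In culture they stood at 0.0243 to 0.131 TPM and 1.23 to 2.89 TPM.

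The 250 bases before the start of transcription are shown for Id2, Id3 and Id4 (RefSeq, GRCm38.p6, 5′ to 3′ along the gene's own strand), because these genes parted ways when Egr1 was added. Windows were found for 8 of the 10 genes, and not for Id1 and Smad7. Capitals mark the GC-rich site GGCGCC, which BMP-activated SMADs can bind, and the Egr site GCGNGGGCG, each searched on both strands.
Id2, chr12:25096093-25096342, minus strand: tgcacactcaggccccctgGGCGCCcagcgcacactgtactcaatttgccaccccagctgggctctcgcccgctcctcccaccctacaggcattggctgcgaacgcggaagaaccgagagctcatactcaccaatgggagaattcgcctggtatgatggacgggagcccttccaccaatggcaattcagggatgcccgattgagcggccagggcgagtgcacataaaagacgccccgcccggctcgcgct
Id3, chr4:136143572-136143821, plus strand: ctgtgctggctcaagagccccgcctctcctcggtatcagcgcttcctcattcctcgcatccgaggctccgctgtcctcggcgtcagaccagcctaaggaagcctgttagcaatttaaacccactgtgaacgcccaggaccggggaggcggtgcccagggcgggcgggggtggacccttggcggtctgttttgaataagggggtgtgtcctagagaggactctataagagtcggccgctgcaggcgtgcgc
Id4, chr13:48260866-48261115, plus strand: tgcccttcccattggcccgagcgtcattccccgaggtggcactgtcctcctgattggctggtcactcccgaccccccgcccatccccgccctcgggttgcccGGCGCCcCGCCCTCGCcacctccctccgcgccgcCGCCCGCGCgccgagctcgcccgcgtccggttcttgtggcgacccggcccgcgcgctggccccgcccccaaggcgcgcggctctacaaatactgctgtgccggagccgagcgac
The Id4 window held 1 GGCGCC at base -148 from the start and 2 Egr sites, at -141 and -114, none of which overlap. The Id2 window held 1 GGCGCC at -231 and no Egr site, and the Id3 window held neither. Across 32536 promoter windows of the same length, 9.65% held GGCGCC and 4.74% held the Egr site. The GC content was 62.8% for Id2, 62.8% for Id3 and 75.6% for Id4, against a median of 52.4% over all windows. Of the other genes, Bmpr1a had 1 GGCGCC and Huwe1 had 1 Egr site.

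At P10, the question was whether 3 days of midazolam changed the pathway by the next day. None of the 10 genes passed (limma, 0.00774% of 12914 genes did), and at an unadjusted p below 0.05 there was 1 of the 10, Id1, against 12.2% of all genes. Their median change was 0.035, against 0.015 over all genes. Id3 was the most abundant Id gene, at 317, 280 and 250 FPKM in MDZ P10 against 256, 191 and 244 FPKM in Control P10 (replicates 1 to 3). Id1 was at 61.7, 59.2 and 51.8 FPKM in MDZ P10 against 49.9, 36.0 and 53.1 FPKM in Control P10. Id4 was at 91.2, 85.6 and 79.4 FPKM in MDZ P10 against 79.1, 64.3 and 79.0 FPKM in Control P10. Only Id4 had every MDZ P10 library above every Control P10 library, by less than 1% at the nearest pair, while 12.2% of all genes were separated in that direction. The log2 changes were 0.32 ± 0.14 for Id1, 0.30 ± 0.13 for Id3 and 0.21 ± 0.09 for Id4 (limma adjusted p 0.409, 0.414 and 0.425). In all 3 the lowest library was Control P10 replicate 2, which was also the shallowest of the 6, and leaving out 1 library at a time moved Id1 between 0.15 and 0.43, Id3 between 0.17 and 0.38 and Id4 between 0.11 and 0.26. Control P10 replicate 2 also had the highest summed oligodendrocyte markers, at 2470 FPKM against 1100 to 1460 FPKM in the other P10 libraries. Its oligodendrocyte precursor markers were highest too, at 1180 FPKM against 766 to 1100 FPKM. Its radial glia-like stem cell markers were lowest, at 1950 FPKM against 1970 to 2550 FPKM. The part of depth and of cell types in these Id levels was not tested. Id2 averaged 196 ± 23.7 FPKM in MDZ P10 against 188 ± 11.3 FPKM in Control P10 (SD, n = 3 each).

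Upstream of the Id genes the P10 groups overlapped. Bmp4 averaged 22.6 ± 2.34 FPKM in MDZ P10 against 22.7 ± 5.48 FPKM in Control P10, where replicate 2 alone reached 29.0 FPKM. Bmpr1a, the broadly expressed type I receptor, averaged 28.3 ± 1.10 FPKM in MDZ P10 against 29.0 ± 2.91 FPKM in Control P10. Bmpr1b, which is found in fewer cell types, averaged 11.4 ± 0.721 FPKM in MDZ P10 against 12 ± 1.09 FPKM in Control P10. The inhibitory SMADs were low: Smad7 averaged 4.23 ± 0.484 FPKM in MDZ P10 against 3.65 ± 0.717 FPKM in Control P10, and Smad6 ran from 1.43 to 1.55 FPKM in MDZ P10 against 1.13 to 1.76 FPKM in Control P10. Huwe1 averaged 28.5 ± 2.45 FPKM in MDZ P10 against 29.7 ± 1.52 FPKM in Control P10. Of 42 other BMP pathway genes 29 were tested and 0 passed in either direction, with 16 positive and a median of 0.017.

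**Figure D1:**
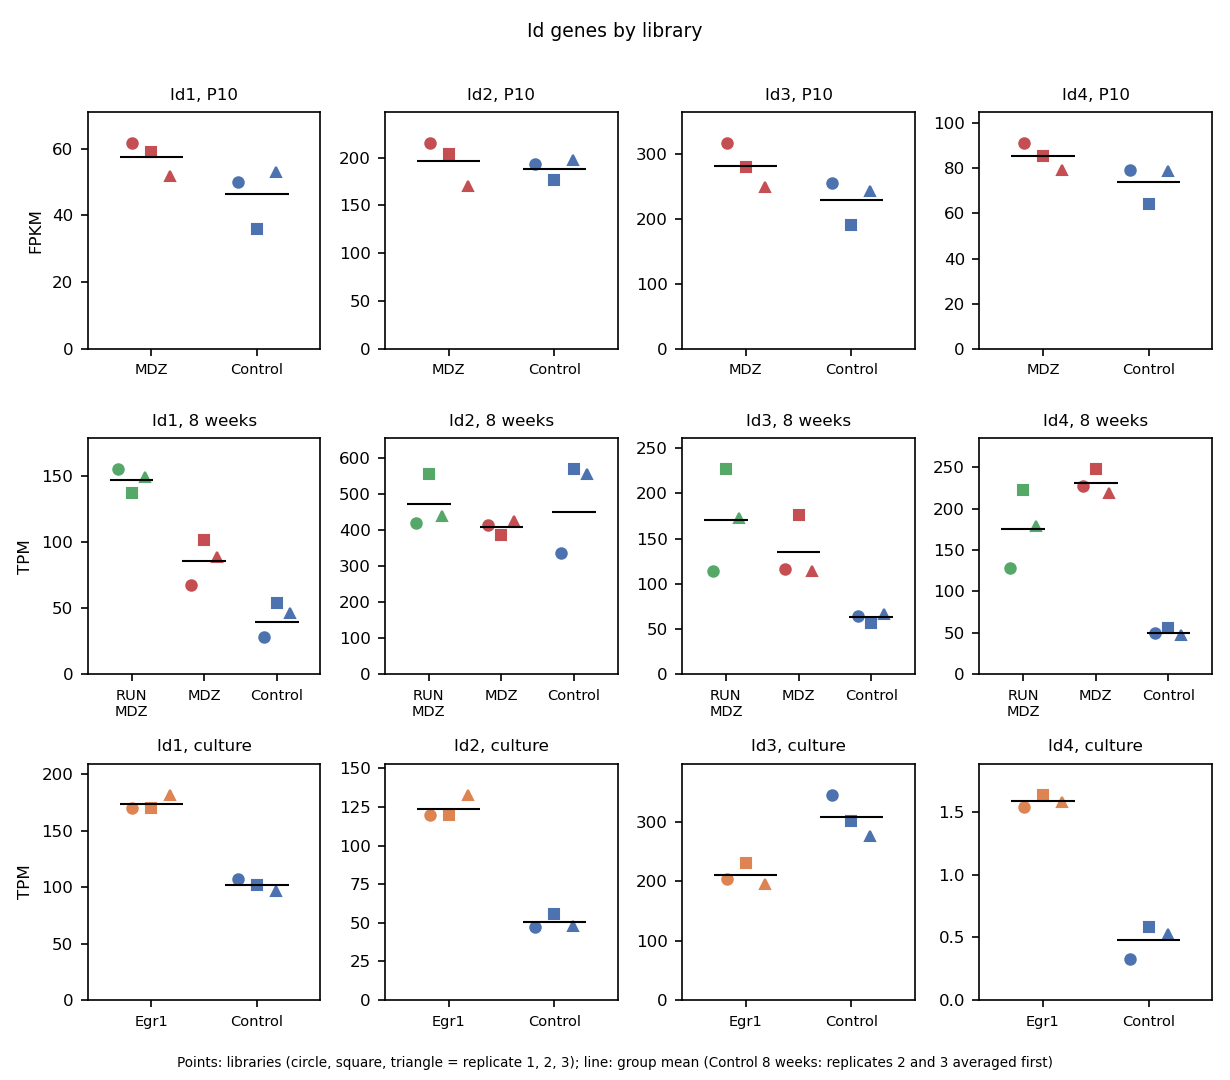
Levels of Id1 to Id4 in each library (y axes, FPKM at P10 and TPM at 8 weeks and in culture, from 0) by group (x axes); points are libraries and lines are group means. At 8 weeks Id4 lies between 219 and 248 TPM in MDZ 8w and between 47.0 and 55.7 TPM in Control 8w, and in culture Id3 moves opposite to Id1, Id2 and Id4.

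At 8 weeks the second comparison set MDZ 8w against Control 8w. Every Control 8w library had fewer genes above 0 than any midazolam library of this age. Exposure and this difference between libraries therefore cannot be told apart, here or in RUN MDZ 8w against Control 8w. Id4 was higher in MDZ 8w than in Control 8w and Id2 was not, so the 4 Id genes did not move as one. Id4 stood at 227, 248 and 219 TPM in MDZ 8w and 49.5, 55.7 and 47.0 TPM in Control 8w (replicates 1 to 3). The groups lay far apart, and each was narrow. The log2 change was 2.17 ± 0.24 (limma adjusted p = 0.00348), and it stayed between 2.11 and 2.24 whichever library was left out (limma adjusted p 0.00058 to 0.031). With library quality weights, which down-weight libraries that fit poorly, the change was 2.16 but the call was lost (limma adjusted p = 0.161).

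Id1 was at 67.3, 101 and 88.5 TPM in MDZ 8w and 28.5, 53.5 and 46.6 TPM in Control 8w. Id3 was at 116, 176 and 114 TPM in MDZ 8w and 64.9, 57.2 and 67.0 TPM in Control 8w. Both were separated between the groups without passing, with log2 changes of 1.14 ± 0.29 for Id1 and 1.05 ± 0.32 for Id3 (limma adjusted p 0.0678 and 0.112). Both passed when Control 8w replicates 2 and 3 were kept as separate samples (limma adjusted p 0.0406 and 0.0412). The log2 change of Id1 was 0.74 without Control 8w replicate 1 and 1.54 against that library alone. Id2, the most abundant Id gene at this age, was at 416, 386 and 425 TPM in MDZ 8w and 337, 571 and 557 TPM in Control 8w (log2 -0.09 ± 0.24, limma adjusted p = 0.857). Control 8w replicate 1 lay below all MDZ 8w libraries and the other two above them.

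Bmpr1b was at 9.77, 17.3 and 6.25 TPM in MDZ 8w but stood at 0 in all Control 8w libraries. It passed (limma adjusted p = 0.0159), and no fold is given against a group at 0. The call was lost without MDZ 8w replicates 1 or 2 (limma adjusted p 0.0866 and 0.0739), with a pseudocount of 5 (0.0632), after quantile normalization (0.303) and with library quality weights (0.540). Bmpr1a was at 65.3, 60.4 and 58.2 TPM in MDZ 8w and 34.1, 58.9 and 54.8 TPM in Control 8w, with the low value in replicate 1 (log2 0.47 ± 0.29, limma adjusted p = 0.368). Bmp4 was at 29.9, 7.47 and 9.68 TPM in MDZ 8w and 0, 6.96 and 9.40 TPM in Control 8w. These ranges overlap, with 1 high MDZ 8w library and 1 Control 8w library at 0 (limma adjusted p = 0.217). The log2 changes were 0.62 for Bmp4 and 0.11 for Bmpr1a without Control 8w replicate 1, and 3.82 and 0.83 against that library alone.

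Smad6 was at 2.60, 2.54 and 2.73 TPM in MDZ 8w but stood at 0 in all Control 8w libraries, without passing (limma adjusted p = 0.133). It passed with a pseudocount of 0.1 (limma adjusted p = 0.0151), with only the 2 groups compared in the fit (0.0379) and with Control 8w replicates 2 and 3 kept apart (0.0402). Smad7 was at 7.91, 7.76 and 13.8 TPM in MDZ 8w and 0.0332, 10.2 and 8.44 TPM in Control 8w. Its ranges overlap and its change rests on replicate 1 of Control 8w (log2 1.68, 0.023 without that library and 3.34 against it alone). Huwe1 was at 154, 163 and 171 TPM in MDZ 8w and 143, 131 and 133 TPM in Control 8w (log2 0.24 ± 0.20, limma adjusted p = 0.501).

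Of the 10 genes, 2 passed as higher (Id4 and Bmpr1b) and 0 as lower, while 4.68% of all genes passed as higher and 0.452% as lower. With the averaged control sample, 7 of the 10 lay higher in MDZ 8w without overlap, as did 27.8% of all genes. Bmpr1b and Smad6 reached the minimum mean for testing only through the midazolam groups, so their place in these counts was partly set by the filter. The median change over all genes was 0.36. Quantile normalization moved that median to -0.055, with Id4, Id1 and Id3 at 2.13, 1.03 and 1.06. Under it Bmpr1b was at 1.5, Smad6 at 0.013, Bmp4 at 0.79 and Smad7 at -0.51. Of the other BMP pathway genes 30 were tested and 0 passed (20 positive, median 0.30).

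Markers of several cell types differed in summed level between the same groups. The 10 radial glia-like stem cell markers summed to 3420 to 5050 TPM in MDZ 8w and 2150 to 2480 TPM in Control 8w (all 10 positive, 3 passing as higher). The 10 astrocyte markers summed to 2060 to 2320 TPM in MDZ 8w and 1020 to 1400 TPM in Control 8w (2 higher). The 10 neuroblast markers summed to 4890 to 7110 TPM in MDZ 8w and 8510 to 8810 TPM in Control 8w (2 lower). The 10 pericyte and smooth muscle markers summed to 882 to 1480 TPM in MDZ 8w and 2460 to 3860 TPM in Control 8w (1 lower). The defining markers of these 4 lists were above 0 in every 8-week library. Of 6 ependymal and choroid plexus markers 3 passed as higher, but their sum was uneven, at 26.9 to 67.2 TPM in MDZ 8w and at 0.121, 4540 and 4820 TPM in Control 8w replicates 1 to 3. In these Control 8w libraries 5, 3 and 3 of the 6 markers were listed at 0, against 0 in every MDZ 8w library. Of 10 endothelial markers 1 passed as higher and 1 as lower, and they summed to 312 to 380 TPM in MDZ 8w and 376 to 527 TPM in Control 8w. The part of these cell types in the Id4 and Bmpr1b results was not tested. In bulk samples, a change in the number of cells of a type and a change in RNA per cell cannot be told apart.

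**Figure D2:**
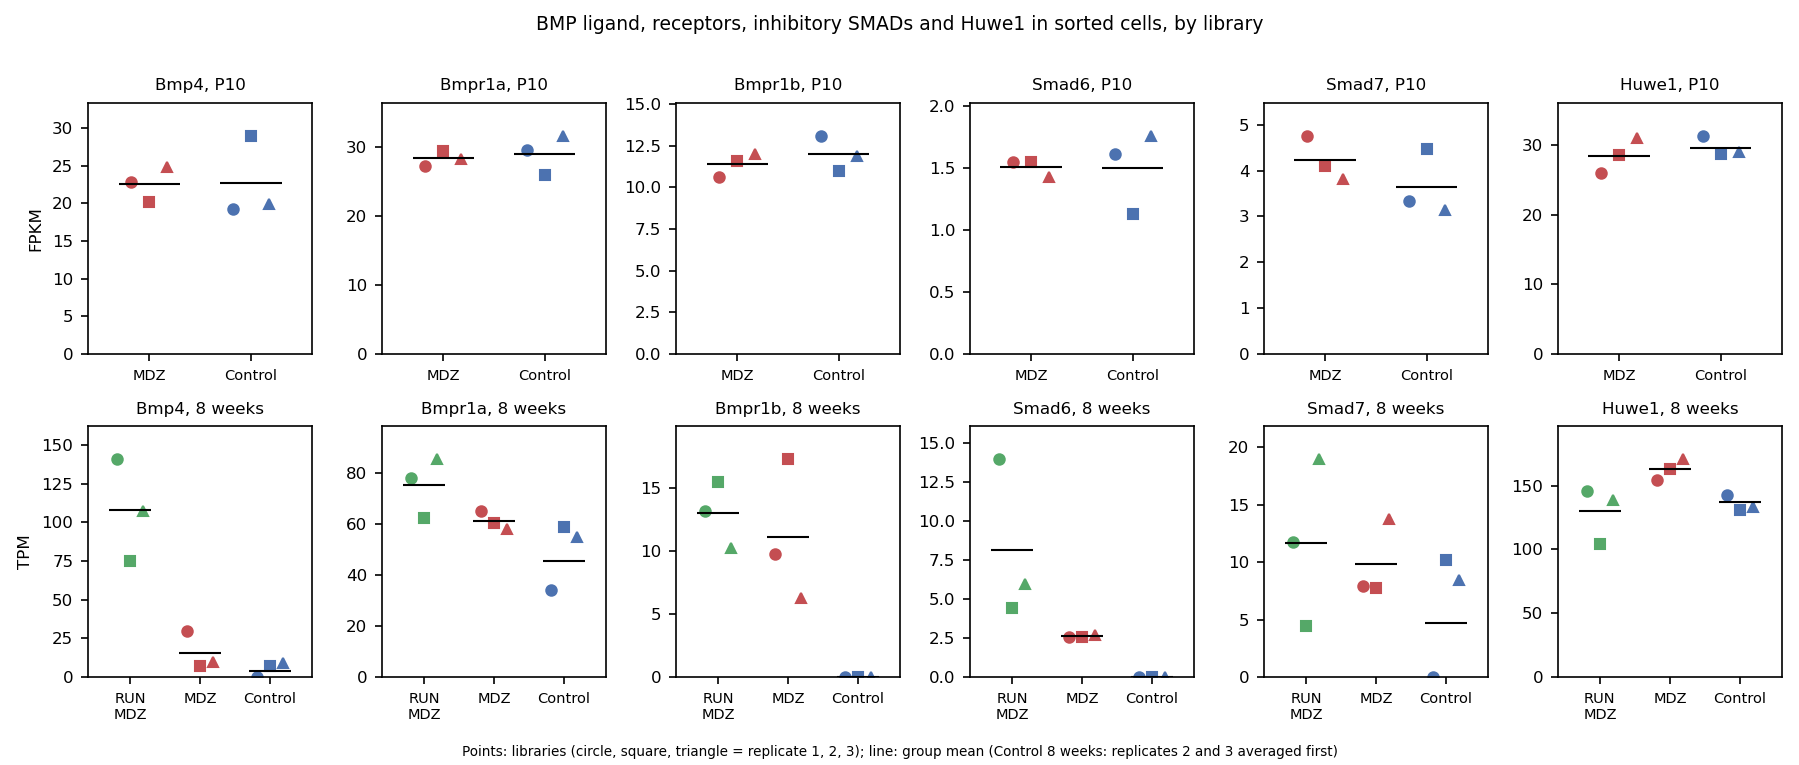
Levels of Bmp4, the type I receptors, the inhibitory SMADs and Huwe1 in each sorted library (y axes, FPKM at P10 and TPM at 8 weeks, from 0) by group (x axes); points are libraries and lines are group means. Bmp4 lies at 75.2 to 141 TPM in RUN MDZ 8w, 7.47 to 29.9 TPM in MDZ 8w and 0 to 9.40 TPM in Control 8w, and Bmpr1b and Smad6 are listed at 0 in all Control 8w libraries.

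The third comparison was between running and sedentary mice that had both received midazolam. None of the 10 genes passed in RUN MDZ 8w against MDZ 8w (0.0524% of 15264 genes passed as higher and 0.105% as lower). At an unadjusted p below 0.05 there were 2, Bmp4 and Id1, against 9.98% of all genes. Bmp4 was at 141, 75.2 and 107 TPM in RUN MDZ 8w and 29.9, 7.47 and 9.68 TPM in MDZ 8w. Every running library lay above every sedentary one. The log2 change was 2.91 ± 0.85 (limma adjusted p = 0.272, unadjusted p = 0.00946). The fit shares its estimate of spread with Control 8w, in which Bmp4 was uneven. With only the 2 groups compared Bmp4 passed (limma adjusted p = 0.0244), as it did with library quality weights (limma adjusted p = 0.0395). Leaving out 1 library at a time, its log2 change ran from 2.54 to 3.47 and its limma adjusted p reached 0.810. Over the alternatives, 0 to 432 genes passed in this comparison.

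Id1 was at 155, 137 and 149 TPM in RUN MDZ 8w and 67.3, 101 and 88.5 TPM in MDZ 8w, again without overlap (log2 0.79 ± 0.26, limma adjusted p = 0.347). Smad6 was at 14.0, 4.42 and 5.98 TPM in RUN MDZ 8w and 2.60, 2.54 and 2.73 TPM in MDZ 8w, with 1 running library well above the other two (limma adjusted p = 0.535). Id4 was at 128, 222 and 179 TPM in RUN MDZ 8w and 227, 248 and 219 TPM in MDZ 8w (log2 -0.42 ± 0.22, limma adjusted p = 0.595). The Id4 ranges touched at 222 and 219 TPM. Huwe1 was at 146, 104 and 139 TPM in RUN MDZ 8w and 154, 163 and 171 TPM in MDZ 8w, and was the single gene of the 10 that lay lower without overlap (log2 -0.34 ± 0.18, limma adjusted p = 0.607). In all, 3 of the 10 lay higher and 1 lower without overlap, against 14.4% and 10.5% of all genes.

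Id3 averaged 171 ± 56.5 TPM in RUN MDZ 8w and 135 ± 35.5 TPM in MDZ 8w, and Id2 473 ± 73.2 TPM in RUN MDZ 8w and 409 ± 20.8 TPM in MDZ 8w (SD, n = 3 each). Bmpr1a averaged 75.4 ± 11.9 TPM in RUN MDZ 8w and 61.3 ± 3.63 TPM in MDZ 8w, and Bmpr1b 13.0 ± 2.64 TPM in RUN MDZ 8w and 11.1 ± 5.66 TPM in MDZ 8w. Smad7 spread widely, from 4.44 to 19.0 TPM in RUN MDZ 8w and from 7.76 to 13.8 TPM in MDZ 8w. The groups of these 5 genes overlapped. The median change of the 10 genes was 0.29, against 0.05 over all genes. Of 30 other BMP pathway genes tested 0 passed and 20 were positive.

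Markers of several cell types also lay apart in this comparison. The 10 endothelial markers summed to 906 to 1190 TPM in RUN MDZ 8w and 312 to 380 TPM in MDZ 8w (all 10 positive, 3 passing as higher). The 10 pericyte and smooth muscle markers summed to 2420 to 3580 TPM in RUN MDZ 8w and 882 to 1480 TPM in MDZ 8w (all 10 positive, 1 higher). The 6 oligodendrocyte markers summed to 2380 to 3570 TPM in RUN MDZ 8w and 187 to 893 TPM in MDZ 8w (all 6 positive, 0 passing). The 10 astrocyte markers summed to 2930 to 3650 TPM in RUN MDZ 8w and 2060 to 2320 TPM in MDZ 8w (8 positive, 0 passing). The 6 fibroblast markers, at 306 to 1170 TPM in RUN MDZ 8w and 138 to 654 TPM in MDZ 8w, were all positive with 0 passing. The same held for the 6 ependymal and choroid plexus markers, at 203 to 3980 TPM in RUN MDZ 8w and 26.9 to 67.2 TPM in MDZ 8w. Other lists overlapped between the groups, with 0 passing. The 10 radial glia-like stem cell markers summed to 3230 to 3700 TPM in RUN MDZ 8w and 3420 to 5050 TPM in MDZ 8w (5 positive). The 10 neuroblast markers summed to 4520 to 5550 TPM and 4890 to 7110 TPM (5 positive). The 6 microglia markers summed to 68.7 to 128 TPM and 86.6 to 206 TPM (0 positive). The defining endothelial markers Pecam1, Cdh5 and Cldn5 were above 0 in every 8-week library. The part of these cell types in the levels of Bmp4, Id1, Id4 and Smad6 was not tested.

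The fourth comparison set RUN MDZ 8w against Control 8w, which share these groups with the comparisons above. Of the 10 genes 6 passed as higher and 0 as lower, while 9.41% of all genes passed as higher and 1.9% as lower. The median change over all genes was 0.51. Bmp4 was at 141, 75.2 and 107 TPM in RUN MDZ 8w and 0, 6.96 and 9.40 TPM in Control 8w (log2 5.12 ± 0.95, limma adjusted p = 0.0152). Its size rests on the uneven control group, and was 3.52 without Control 8w replicate 1, which is at 0, and 6.72 against that library alone (limma adjusted p 0.00728 and 0.000139). Id1 was at 155, 137 and 149 TPM in RUN MDZ 8w and 28.5, 53.5 and 46.6 TPM in Control 8w (log2 1.93 ± 0.29, limma adjusted p = 0.00738). Both genes lay several-fold apart with no overlap. Id4 had a log2 change of 1.75 ± 0.24 (limma adjusted p = 0.00544) and Id3 of 1.36 ± 0.32 (limma adjusted p = 0.0356). Id3 was at 114, 227 and 173 TPM in RUN MDZ 8w and 64.9, 57.2 and 67.0 TPM in Control 8w. Bmpr1b and Smad6 passed as well (limma adjusted p 0.00843 and 0.0208), both against a control group listed at 0 and tested only because the midazolam groups raised their mean above the filter. Without them, 4 of the other 8 genes passed.

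All 6 calls were lost with library quality weights (limma adjusted p 0.30 to 0.605) and with only the 2 groups in the fit (0.0845 to 0.154), settings under which limma passed 0 genes in this comparison (1531 and 2742 genes at an unadjusted p below 0.05). Id3 was also lost without any one of MDZ 8w replicates 1 to 3 or RUN MDZ 8w replicates 2 or 3 (limma adjusted p 0.0507 to 0.0929) and after quantile normalization (0.0644), Smad6 without MDZ 8w replicates 1 or 3 (0.0551 and 0.0504), with a pseudocount of 5 (0.0563) and after quantile normalization (0.554), Bmpr1b after quantile normalization (0.251), and Bmp4 without RUN MDZ 8w replicate 1 (0.0510). Without overlap, 7 of the 10 genes lay higher, against 24.4% of all genes. Bmpr1b and Smad6 are among these 7, and their place in this count was partly set by the filter. Bmpr1a, Id2, Smad7 and Huwe1 did not pass (limma adjusted p 0.138, 0.789, 0.283 and 0.760). Without Control 8w replicate 1 the log2 changes were 0.39 for Bmpr1a and 0.11 for Smad7, and against that library alone 1.11 and 3.43.

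Of 30 other BMP pathway genes tested in that comparison, 5 passed as higher and 0 as lower (23 positive, median 0.52). Rgma, a BMP co-receptor, was at 119, 85.2 and 113 TPM in RUN MDZ 8w and 34.3, 49.5 and 54.1 TPM in Control 8w (log2 1.29 ± 0.27, limma adjusted p = 0.0243). The other 4 were at 0 in all Control 8w libraries and reached the minimum mean only through the midazolam groups. They were Msx1, a homeobox target of BMP signalling, at 8.28, 6.60 and 4.01 TPM in RUN MDZ 8w, and the ligand Bmp6 at 3.20, 25.0 and 10.3 TPM. Chrdl1, an extracellular antagonist, was at 5.69, 3.27 and 8.69 TPM in RUN MDZ 8w and Sostdc1, another antagonist, at 5.06, 19.6 and 13.8 TPM. The 10 endothelial markers (7 higher, 0 lower) summed to 906 to 1190 TPM in RUN MDZ 8w and 376 to 527 TPM in Control 8w. The 10 astrocyte markers (8 higher, 0 lower) summed to 2930 to 3650 TPM in RUN MDZ 8w and 1020 to 1400 TPM in Control 8w. The 6 oligodendrocyte markers (6 higher) summed to 2380 to 3570 TPM in RUN MDZ 8w and 255 to 424 TPM in Control 8w, and the 10 neuroblast markers (6 lower) to 4520 to 5550 TPM in RUN MDZ 8w and 8510 to 8810 TPM in Control 8w. The 10 radial glia-like stem cell markers (9 positive, 2 higher) summed to 3230 to 3700 TPM in RUN MDZ 8w and 2150 to 2480 TPM in Control 8w. Of 6 ependymal and choroid plexus markers 3 passed as higher, with uneven sums of 203 to 3980 TPM in RUN MDZ 8w and 0.121 to 4820 TPM in Control 8w. In Control 8w 5, 3 and 3 of these 6 markers were listed at 0 (replicates 1 to 3), against 1, 0 and 0 in RUN MDZ 8w. The part of these cell types in the calls was not tested.

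**Figure D3:**
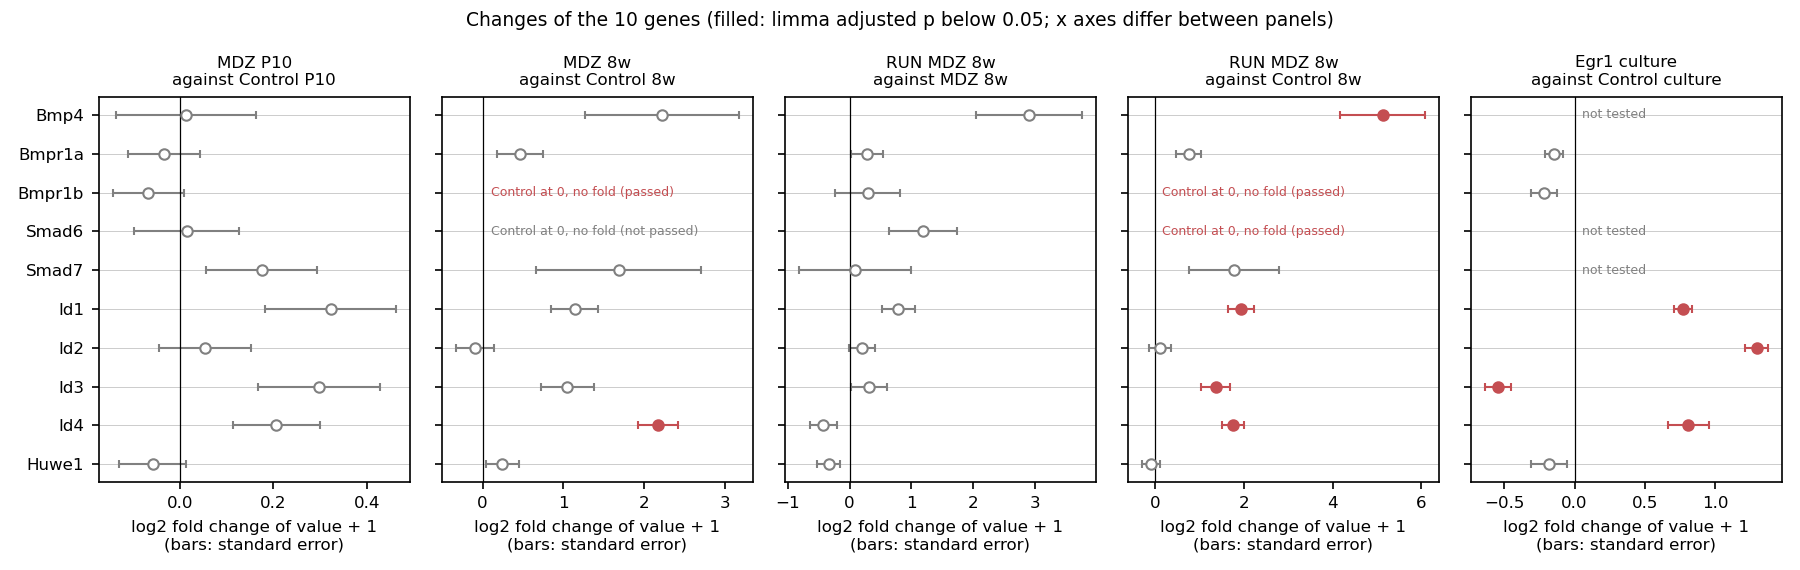
Log2 fold changes (x axes, value + 1) with standard errors of the 10 genes (y axis) in the 5 comparisons; filled points passed at a limma adjusted p below 0.05, and the x axes differ between panels. None passed at P10 or between RUN MDZ 8w and MDZ 8w, 2 passed in MDZ 8w, 6 in RUN MDZ 8w against Control 8w and 4 in culture.

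In culture, the question was which genes differ with added Egr1. Egr1 culture cells carried a lentivirus that Control culture cells lacked, so effects of Egr1 and of that virus cannot be told apart. Egr1 itself was at 1769, 1390 and 1291 TPM in Egr1 culture and 361, 285 and 344 TPM in Control culture. Id1, Id2 and Id4 rose and Id3 fell in Egr1 culture, with no overlap between the groups in any of the 4. Id2 was at 120, 120 and 133 TPM in Egr1 culture and 47.3, 55.7 and 47.7 TPM in Control culture (log2 1.30 ± 0.08, limma adjusted p = 5.6e-06). Id1 was at 170, 170 and 182 TPM in Egr1 culture and 107, 102 and 96.4 TPM in Control culture (log2 0.77 ± 0.06, limma adjusted p = 2.3e-05). Replicates of both genes agreed closely in each group. Id3 was at 204, 231 and 196 TPM in Egr1 culture and 346, 301 and 277 TPM in Control culture (log2 -0.55 ± 0.09, limma adjusted p = 0.0016). Id4 was barely expressed and reached the minimum mean only through Egr1 culture, at 1.54, 1.64 and 1.58 TPM in Egr1 culture and 0.326, 0.586 and 0.527 TPM in Control culture (log2 0.81 ± 0.15, limma adjusted p = 0.0023). All 4 kept their direction and their call in every alternative in which they were tested. With no filter on low values Id4 also passed (limma adjusted p = 0.00102). It fell below the filter in some alternatives, among them each fit without 1 Egr1 culture library, and its change was 0.27 with a pseudocount of 5 and 1.57 with a pseudocount of 0.1. In the windows printed above, the Egr site was in that of Id4 and in neither of those of Id2 and Id3. No window was found for Id1, and the part of such sites in these changes was not tested.

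The rest of the 10 genes differed less or were nearly silent. Bmp4 was listed at 0 in all 6 culture libraries. Smad6 was at 0, 0.0432 and 0.125 TPM in Egr1 culture and 0.386, 0.132 and 0.231 TPM in Control culture. Smad7 averaged 0.832 ± 0.206 TPM in Egr1 culture and 0.573 ± 0.182 TPM in Control culture (SD, n = 3 each). These 3 fell below the minimum mean of 1 TPM and were not tested. Bmpr1a was at 73.5, 75.2 and 68.2 TPM in Egr1 culture and 77.3, 79.3 and 83.9 TPM in Control culture (log2 -0.15 ± 0.07, limma adjusted p = 0.0975). Bmpr1b was at 18.2, 19.5 and 16.7 TPM in Egr1 culture and 20.0, 20.9 and 22.8 TPM in Control culture (log2 -0.22 ± 0.09, limma adjusted p = 0.080). Both receptors lay lower without overlap and did not pass. Huwe1 averaged 36.1 ± 6.39 TPM in Egr1 culture and 40.7 ± 4.21 TPM in Control culture (limma adjusted p = 0.288).

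The background in culture was large. Of 12402 genes tested, 15.2% passed as higher and 29% as lower (1888 and 3598 genes), a split that became 2776 and 2721 with median-of-ratios scaling, which moved the median of all genes from -0.098 to 0.0053. Of the 7 members tested, 3 passed as higher and 1 as lower, with a median of -0.15. Groups without overlap were found for 3 of the 7 on the higher side and 3 on the lower side, against 18.4% and 37.1% of all genes. Both counts on the higher side include Id4, which was tested only because Egr1 culture raised its mean. Its place in them was partly set by the filter.

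Other BMP pathway genes changed in both directions in culture. Of 42 listed, 22 were tested, 10 passed as higher and 5 as lower (median 0.031). Among receptor SMADs, Smad5 was at 157, 141 and 136 TPM in Egr1 culture and 76.4, 77.1 and 85.6 TPM in Control culture (log2 0.85 ± 0.08, limma adjusted p = 4.2e-05). Smad1 was at 40.8, 38.0 and 37.3 TPM in Egr1 culture and 25.8, 23.1 and 25.7 TPM in Control culture (log2 0.62 ± 0.08, limma adjusted p = 0.00029). The co-receptor Rgma was at 63.8, 60.1 and 51.4 TPM in Egr1 culture and 22.9, 19.9 and 21.3 TPM in Control culture (log2 1.41 ± 0.10, limma adjusted p = 9.3e-06). These 3 signal-transducing genes were clearly separated between the groups. Follistatin (Fst), an extracellular antagonist of activins and BMPs, was at 9.84, 8.84 and 8.65 TPM in Egr1 culture and 1.71, 2.17 and 2.34 TPM in Control culture (log2 1.72 ± 0.12, limma adjusted p = 1.3e-05). Noggin (Nog), an antagonist that binds BMP ligands, was at 1.95, 2.02 and 1.54 TPM in Egr1 culture and 0.138, 0.142 and 0.223 TPM in Control culture (log2 1.28 ± 0.15, limma adjusted p = 0.00022), and was tested only because Egr1 culture raised its mean above the filter. Bmper, another extracellular BMP regulator, fell to 3.52, 2.92 and 2.88 TPM in Egr1 culture, against 5.44, 6.16 and 7.25 TPM in Control culture (log2 -0.82 ± 0.13, limma adjusted p = 0.0013). The antagonists did not share a direction.

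Vascular markers were low in culture, and markers of other cell types differed in both directions. The 10 pericyte and smooth muscle markers summed to 38.1 to 52.5 TPM in Egr1 culture and 23.1 to 29.9 TPM in Control culture (4 tested, 2 higher and 1 lower). The 10 endothelial markers summed to 8.09 to 10.3 TPM in Egr1 culture and 18.2 to 20.8 TPM in Control culture, with Cldn5 at 0 in all 6 libraries, and 2 of the 3 tested were lower. The 6 fibroblast markers summed to 127 to 163 TPM in Egr1 culture and 1.89 to 2.06 TPM in Control culture, a sum that rests on Dcn (log2 7.01). Of its members 2 were tested and both passed as higher, Pdgfra with a log2 change of 0.51. The 6 oligodendrocyte markers summed to 197 to 205 TPM in Egr1 culture and 95.4 to 105 TPM in Control culture (3 tested, 3 higher). The 6 oligodendrocyte precursor markers summed to 794 to 921 TPM in Egr1 culture and 1570 to 1660 TPM in Control culture (4 tested, 1 higher and 3 lower). The 10 astrocyte markers summed to 423 to 471 TPM in Egr1 culture and 559 to 586 TPM in Control culture (8 tested, 2 higher and 2 lower). The 10 radial glia-like stem cell markers summed to 5010 to 5250 TPM in Egr1 culture and 5670 to 6130 TPM in Control culture (9 tested, 3 higher and 4 lower). The 10 neuroblast markers summed to 354 to 402 TPM in Egr1 culture and 257 to 276 TPM in Control culture (6 tested, 2 higher and 1 lower). The 6 microglia markers summed to 31.9 to 34.0 TPM in Egr1 culture and 53.1 to 56.1 TPM in Control culture (2 tested, 2 lower). The part of such differences in the Id results was not tested.

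**Figure D4:**
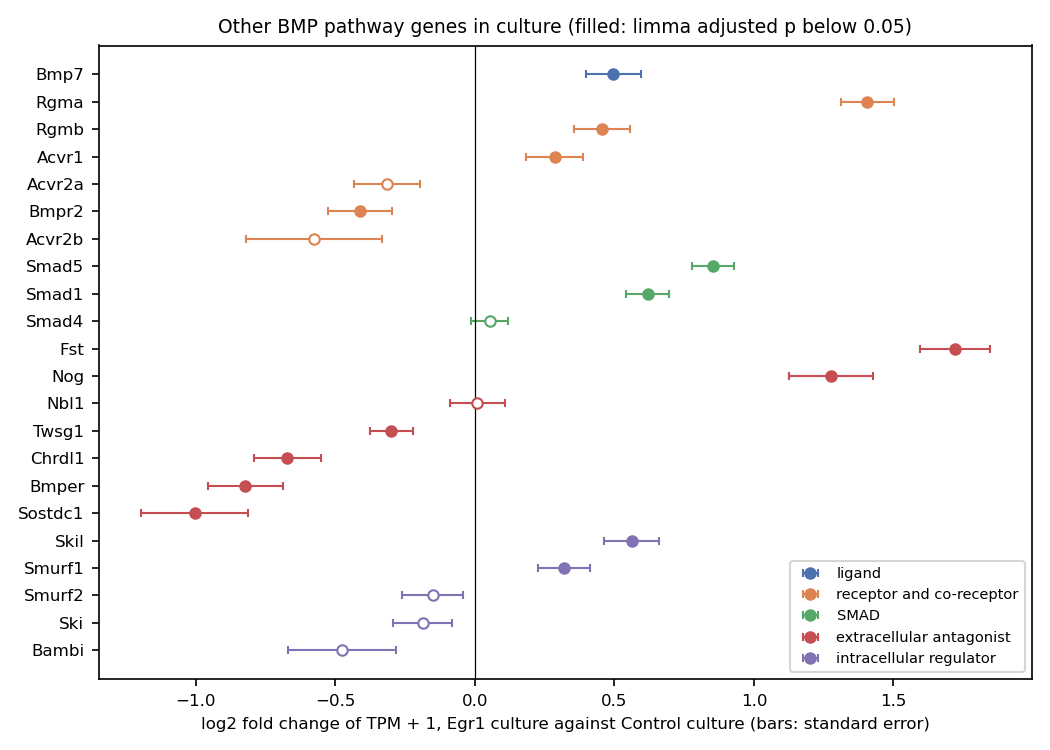
Log2 fold changes (x axis, TPM + 1, Egr1 culture against Control culture) with standard errors of the 22 other BMP pathway genes tested (y axis), coloured by role; filled points passed at a limma adjusted p below 0.05. Smad1, Smad5, Rgma, Fst and Nog lie on the higher side and Bmper, Chrdl1 and Sostdc1 on the lower side.

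The genes most like each Id gene were ranked by Pearson's r of log2(value + 1) over 20 samples, centred within P10, 8 weeks and culture, among 11340 genes tested in all 3 sets. These values share libraries and group differences and are a description with no test. Id1 was most like Slc16a1, Abhd4 and Hsd11b1 (r 0.944, 0.921 and 0.912). Id2 was most like Scube1, Lrp11 and Mxra7 (r 0.933, 0.931 and 0.927), and Id3 most like Kdelr3, Avpi1 and Ccdc102a (r 0.941, 0.932 and 0.901). Id4 was most like A630072M18Rik, Arhgap19 and Cml1 (r 0.968, 0.96 and 0.938). Among the Id genes themselves r was highest for Id1 with Id4 (0.749) and lowest for Id2 with Id3 (-0.214).

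The members lie on different chromosomes for the most part (GRCm38, the build also called mm10). Id1 is on chromosome 2 (152736251 to 152737410), Id2 on chromosome 12 (25093799 to 25096092), Id3 on chromosome 4 (136143822 to 136145392) and Id4 on chromosome 13 (48261116 to 48266028). Bmp4 (46383525 to 46390669) and Bmpr1a (34411061 to 34503336) are both on chromosome 14, Bmpr1b is on chromosome 3 (141837135 to 142169585) and Smad6 on chromosome 9 (63953076 to 64022085). Huwe1 is X-linked (151800785 to 151935417).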

How the data were processed

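The RNA sequencing values of 21 libraries in 7 groups were analysed, and the other 10 of the 31 samples listed were not analysed here. The P10 tables hold FPKM values deposited by the authors and the 8-week and culture tables hold TPM values deposited by the authors. No label names these units: TPM was read from sums of about 1000000 per library, and FPKM from sums that differ between libraries over the same gene names. The submitters' processing notes list TopHat, Bowtie2, DESeq2 and the build mm10, with neither roles nor versions. Which of these gave the values, with what annotation and strand setting, is not given in the sources used here, and genes that overlap others are uncertain.

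Values were taken as log2(value + 1), and genes with a mean of at least 1 over the samples of a fit were tested with limma 3.58.1 in R 4.3.3, with a mean-variance trend and Benjamini-Hochberg adjustment at 0.05. P10, 8-week and culture samples were fitted apart, and the 3 groups at 8 weeks shared 1 estimate of spread, although Control 8w varied more than the others. The test was tried on simulated data in which each gene had the same spread in every group and no genes were set to 0 by group. Those settings differ from the 8-week data, so that trial does not show how the test behaves there. Group means ± SD are on the linear scale.

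The members, gene lists and alternatives were chosen with earlier results of these data known. Named in each comparison were the 10 members, up to 6 listed BMP pathway genes that passed, by smallest p, and the 3 genes most like each Id gene. Alternatives changed the pseudocount (0.1 or 5), the filter (none, or a mean of 5), the scaling, the library weights, the samples in the fit, the averaging of Control 8w replicates 2 and 3, and the use of replicate numbers as a block. Same-numbered samples deviated together with correlations of -0.0771 to 0.133, so the numbers were not taken as pairs. One listed gene is not reported here.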

Additional observations from a re-analysis of the deposited data

How the results depend on the processing

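For the 10 genes, 759 values under the alternatives kept their direction and their side of the threshold, 30 lost a call, 15 gained one and 25 changed sign. The calls gained or lost are given with the results, except calls gained with 1 Control 8w sample in the fit. Their cause was not tested. Sign changes touched only small or uneven changes. At P10 Bmp4 turned to -0.0051 after quantile normalization and -0.0077 with median-of-ratios scaling, and Smad6 to -0.0042 after quantile normalization and -0.035 with library quality weights. Smad7 turned after quantile normalization to -0.51 in MDZ 8w and -0.59 in RUN MDZ 8w against Control 8w, and to -0.079 in RUN MDZ 8w against MDZ 8w. Id2 in RUN MDZ 8w against Control 8w turned to -0.019 with Control 8w replicates 2 and 3 kept apart, and to the same value with the replicate block. Leaving out 1 library at a time, the P10 changes ran from -0.089 to 0.20 for Bmp4, -0.11 to 0.030 for Bmpr1a, -0.098 to 0.090 for Smad6, -0.016 to 0.15 for Id2 and -0.12 to 0.0036 for Huwe1. In the same way, against Control 8w, Id2 ran from -0.46 to 0.28 in MDZ 8w, while in RUN MDZ 8w it ran from -0.27 to 0.48 (0.18 without RUN MDZ 8w replicate 1) and Huwe1 from -0.19 to 0.053. Against MDZ 8w, RUN MDZ 8w ran from -0.33 to 0.61 for Smad7 and -0.025 to 0.64 for Bmpr1b.

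Counts of genes past the threshold moved more. At P10 the count was 1, and it was 2 with a pseudocount of 5, 4 with a minimum mean of 5, 4 after quantile normalization (3 higher and 1 lower), 5 with library quality weights, and 0 with median-of-ratios scaling and with the replicate block (1563 and 1545 genes at an unadjusted p below 0.05). It was 101 without Control P10 replicate 2 and 0 to 2 without another library (962 to 1276 unadjusted where it was 0). For MDZ 8w against Control 8w it was 783, and 1410 and 461 with pseudocounts of 0.1 and 5, 152 after quantile normalization, 19 with library quality weights, 1787 with Control 8w replicates 2 and 3 kept apart, 1227 with the replicate block on top, 2928 without Control 8w replicate 1, 4995 without replicates 2 and 3, 207, 294 and 281 without MDZ 8w replicates 1 to 3, and 698 to 853 without another library. For RUN MDZ 8w against MDZ 8w it was 24 (8 higher and 16 lower), and 34 after quantile normalization (15 higher and 19 lower), 432 with library quality weights, 122 with replicates 2 and 3 kept apart, 360 with only the 2 groups, 14 with the replicate block, 275 without Control 8w replicate 1, 345 without replicates 2 and 3, 0 without any one MDZ 8w library (862 to 1159 unadjusted), 10 and 13 without RUN MDZ 8w replicates 1 and 3, and 16 to 24 without another library. For RUN MDZ 8w against Control 8w it was 1727 (1437 higher and 290 lower), and 406 after quantile normalization (278 higher and 128 lower), 0 with library quality weights and with only the 2 groups, 2904 with replicates 2 and 3 kept apart, 2595 with the replicate block, 3952 without Control 8w replicate 1, 5649 without replicates 2 and 3, and 910 to 1772 without another library. For culture it was 5486, and 4646 with the replicate block. Without Control 8w replicate 1, or without replicates 2 and 3, that group is 1 sample assumed to vary like the others. Without a depth at 8 weeks, a listing at 0 sets no upper limit.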

Other observations

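The make-up of the summed Id level differed between groups. At 8 weeks Id2 made up 46.8% to 51.5% of it in RUN MDZ 8w, 42.4% to 50.3% in MDZ 8w and 70.2% to 77.6% in Control 8w. Id4 made up 15.6% to 19.4% in RUN MDZ 8w, 25.8% to 27.5% in MDZ 8w and 6.55% to 10.3% in Control 8w. Id1 made up 12% to 19% in RUN MDZ 8w, 8.14% to 11.1% in MDZ 8w and 5.93% to 7.25% in Control 8w. At P10 Id3 made up 44.6% to 46.2% in MDZ P10 and 40.9% to 44.3% in Control P10, and Id2 30.8% to 32.4% in MDZ P10 and 33.3% to 37.6% in Control P10, both without overlap. The P10 ranges of Id4 overlapped, at 13.3% to 14.4% in MDZ P10 and 13.7% to 13.8% in Control P10. In culture Id3 made up 38.2% to 44.1% in Egr1 culture and 65.5% to 69.2% in Control culture, and Id4 0.308% to 0.314% in Egr1 culture and 0.0652% to 0.128% in Control culture. The 4 Id genes summed to 818 to 1142 TPM in RUN MDZ 8w, 827 to 911 TPM in MDZ 8w and 480 to 738 TPM in Control 8w. These shares are descriptions of each library and were not tested.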
